A study of Mus musculus with 24 samples.

Results

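Conventional type 1 dendritic cells (cDC1s) of Panc02 tumors were chosen by their transcripts. A barcode counted as a cDC1 if it held at least 1000 unique molecular identifiers (UMIs, counts of single captured transcripts), under 10% mitochondrial UMIs, and 2 or more UMIs of *Xcr1* and *Clec9a* together. It also had to hold no UMI of the migration receptor *Ccr7*, of the T cell genes *Cd3d*, *Cd3e*, and *Cd3g*, or of the B cell gene *Cd79a*, and fewer than 10 UMIs per 10000 of the macrophage genes *C1qa*, *C1qb*, and *C1qc*. Of 144994 barcodes, 120912 passed the limits on UMIs and mitochondrial share, and 742 of these (0.614%) were cDC1s. Both gate genes and the genes of the limits were therefore fixed by the choice, and levels of other genes against the remaining barcodes are given as a description, with no test.

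cDC1s are the dendritic cells that take up dying cells and load their antigens onto MHC class I, a process called cross-presentation that primes CD8+ T cells. They arise under the transcription factors IRF8 and BATF3 and depend on the growth factor FLT3L. XCR1 is the receptor for a chemokine that CD8+ T cells and NK cells release, and CLEC9A binds actin exposed by dead cells. In tumors cDC1s are also known as a source of CXCL9, which attracts T cells, and of IL-12. After they take up antigen they mature, gain CCR7, and migrate to lymph nodes.

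Panc02 is a murine pancreatic cancer line, and its cells were implanted s.c. in WT male C57BL/6 mice of 6 to 7 weeks. PancVAX, a vaccine of neoantigen peptides at 50 µg of each, was given on days 12 and 19. It was combined in all 8 ways with 100 µg anti–PD-1 (repeatedly from day 12) and 100 µg anti–CTLA-4 (days 15 and 22). Tumors were taken on day 38. These days are those of the methods, and a figure legend of the study gives another second day of anti–CTLA-4 and another day of harvest. The 8 groups were isotype control, anti–PD-1, anti–CTLA-4, anti–PD-1 plus anti–CTLA-4, PancVAX, PancVAX plus anti–PD-1, PancVAX plus anti–CTLA-4, and PancVAX plus both antibodies. The labels name the fifth group PancVAX only, and the study describes it as PancVAX with isotype antibodies. It is called PancVAX alone here. Mice not vaccinated received PBS by the methods. By the methods the vaccine also held the adjuvant AddaVax and a STING agonist, so that peptides and adjuvants cannot be told apart. Tumors of a group were pooled, and each group gave 1 library made after dissociation alone (whole tumor) and 1 made after a Percoll density gradient. Both libraries of a group are called its pool here, and nothing in the sources used says whether they came from the same mice. The preparations are also the sequencing batches, so that Percoll and batch cannot be told apart. The design compares pools and not mice, and *P* values measure the spread between pools or libraries. No treatment had a second pool. In comparisons over pools, the spread therefore also holds differences between treatments that the comparison does not model.

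The 16 libraries held 77132398 to 176233225 UMIs and 4881 to 10640 passing barcodes. They gave 23 to 85 cDC1s each and 67 to 139 per pool, with 843457 to 2161599 UMIs of cDC1s per pool. PancVAX-treated pools held 406 of the cDC1s, and pools not given the vaccine held 336. A cDC1 held a median of 12851.5 UMIs (quartiles 5738 and 20654.5), against 10584 in the other passing barcodes. More than 10000 UMIs, the upper limit that the methods set, were found in 448 cDC1s (60.4%), and 292 cDC1s met all limits of the methods. No doublet caller was run. The sequence of a cDC1 barcode recurred among passing barcodes of another library in 111 cases, and in no case among cDC1s.

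The gate was checked against genes that it did not use. Levels are counts per 1000000 UMIs (CPM), the UMIs of a gene relative to all UMIs of a set of cells. *Irf8* (ENSMUSG00000041515) was at 1642 CPM in cDC1s and at 44.1 in other passing barcodes, *Batf3* (ENSMUSG00000026630) at 170 and 9.23, and *Flt3* (ENSMUSG00000042817) at 104 and 0.89. All 3 were higher in cDC1s than in other barcodes in 8 of 8 pools. Among the 16 libraries, *Irf8* ranged from 990 to 2000 CPM (median 1774), *Batf3* from 113 to 215 (median 175), and *Flt3* from 45.5 to 149 (median 101), so that every library of cDC1s lay above the level of the other barcodes. A list of cDC1 identity held 24 genes, and of the 22 that were not gate genes, 20 were above the other barcodes in all 8 pools. The share over all genes is not given, so that nothing is read from this count. T cell receptor contigs, which were sequenced in the Percoll libraries only, were found in 0 of 380 cDC1s and in 8006 of 62114 passing barcodes of those libraries. The gate leaves out cells with a UMI of the CD3 genes, so that the contigs are no separate check of it.

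*Xcr1* (ENSMUSG00000060509) and *Clec9a* (ENSMUSG00000046080) defined the cells and were at 366 and 420 CPM. Both were found in 563 cDC1s, *Clec9a* alone in 153, and *Xcr1* alone in 26. At the edge of the gate, 135 cDC1s held exactly 2 UMIs of both genes, and 480 barcodes with 1 UMI met every other limit. The cells inside the edge differed from the cells far inside. With exactly 2 gate UMIs, *Irf8* was at 1010 CPM and *Naaa* at 315, and with 9 or more (375 cells) they were at 1817 and 1234. Median depth also differed between these bins, at 5243 and 18856 UMIs. *Siglech*, a marker of plasmacytoid dendritic cells, was at 344 CPM in cells with 2 gate UMIs and at 0.615 in cells with 9 or more. It was found in 41 cDC1s, of which 28 held exactly 2 gate UMIs. The limit on C1q mattered most: 2174 passing barcodes held 2 or more gate UMIs, and 1196 of them were left out for C1q alone. Barcodes with 20 or more C1q UMIs per 10000 (1183) had *Apoe* at 9666 CPM and *Csf1r* at 449, as macrophages do, and *Irf8* at 296. cDC1s with 5 to 10 per 10000 (35 cells) still had *Irf8* at 899 CPM and *Naaa* at 939, with *Apoe* at 245. The 13 barcodes just outside, with 10 to 20 per 10000, had *Irf8* at 309 CPM and *Apoe* at 1414.

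Markers of other cells were present in part. Genes that the gate limits are left out of these sums. The other 12 markers of macrophages and monocytes summed to 916 to 1940.0 CPM in cDC1s across pools, against 4545 to 5915 in other barcodes. The other 7 markers of B cells summed to 73.0 to 143 CPM, mostly *Ighm* at 91.7, against 26.2 to 100.3 in other barcodes. The other 13 markers of T and NK cells summed to 57.3 to 115 CPM, against 295 to 686 in other barcodes. Among them, *Cd8a*, at 48.9 CPM in cDC1s, is a gene that cDC1s are known to transcribe in lymphoid organs. The 4 hemoglobin genes were at 0 in most pools and at most 1.56 CPM in all. The 11 tumor and stroma genes summed to 294 CPM in cDC1s with PancVAX plus anti–PD-1 and to 3014 with PancVAX alone, against 2631 to 3210 in other barcodes. With PancVAX alone *Col1a1* was at 997 CPM and *Sparc* at 1008, against at most 4.14 and 192 in any other pool, and 1 cDC1 held 96.8% of all *Col1a1* UMIs of the cDC1s. The same pool had the fewest keratin UMIs, 40 in all. *Krt8* and *Krt18*, keratins of the carcinoma cells, were found in 205 cDC1s (27.6%), and 67 cells with 10 or more keratin UMIs held 94.8% of these UMIs. cDC1s with a keratin UMI held a median of 17871 UMIs, and those without held 11104. When every cell was thinned to 2000 UMIs, *Krt18* was found in 11.2% of cDC1s, 9.29% of type 2 dendritic cells, and 9.23% of T cells with a receptor contig. Results on genes are also given without the 205 cells, an alternative chosen after the data were seen.

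**Figure D1:**
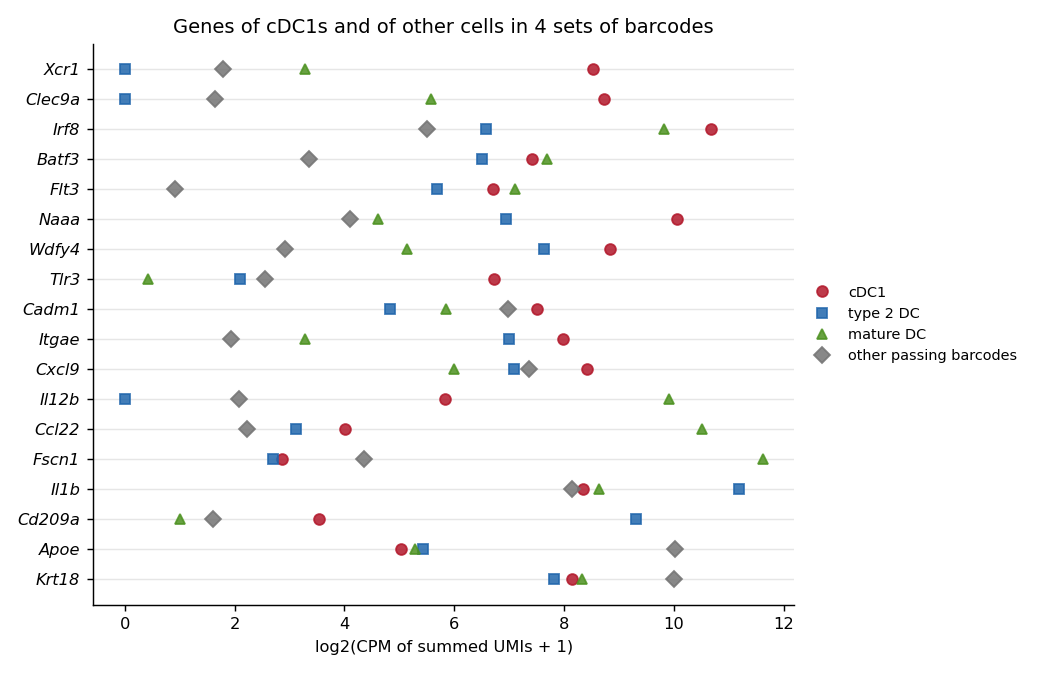
Level of 18 genes as log2(CPM + 1) of UMIs summed over cDC1s, type 2 dendritic cells (DC), mature dendritic cells, and all other passing barcodes of the 16 libraries. *Xcr1*, *Clec9a*, *Cd209a*, and *Fscn1* were used to choose the sets, and *Irf8*, *Naaa*, *Tlr3*, and *Cxcl9* are highest in cDC1s, while *Il12b* and *Ccl22* are highest in mature dendritic cells and *Il1b* in type 2 cells.

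cDC1s were set beside the most similar cells. Type 2 dendritic cells (319 barcodes) were chosen by 2 or more *Cd209a* UMIs with no *Xcr1* or *Clec9a*, under the same limits, and mature dendritic cells (305) by 2 or more UMIs each of *Ccr7* and *Fscn1*. These gates are mutually exclusive by *Ccr7*, *Xcr1*, and *Clec9a*, and 26 mature cells also held 2 or more gate UMIs of cDC1s. Median depth was 9333 UMIs in type 2 cells and 6881 in mature cells. Here and below, counts of genes higher or lower in all 8 pools between cell sets come without the share over all genes. Nothing is read from these counts. Of the 22 identity genes that were not gate genes, 14 were higher in cDC1s than in type 2, mature, and other cells alike in all 8 pools. Among these, *Naaa*, a lysosomal amidase, was at 1064 CPM against 122 in type 2 and 23.5 in mature cells. *Ppt1*, a lysosomal thioesterase, was at 948 CPM against 53.4 and 35.9. *Cadm1*, an adhesion molecule, was at 181 against 27.4 and 56.3, and the integrin gene *Itgae*, which encodes CD103, at 251 against 127 and 8.72. *Batf3* and *Flt3* were shared with mature cells, at 204 and 137 CPM there. *Id2* was higher in mature cells (1386 CPM) than in cDC1s (594), and *Zeb2*, a factor of the type 2 lineage, was lowest in cDC1s at 23.8 CPM against 84.0 in type 2 cells. The SD over the 8 pools was 10.3% to 41.5% of the mean for the 22 genes (median 14.7%).

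Genes of uptake and cross-presentation were divided between the cell types. *Wdfy4*, which is needed for cross-presentation by cDC1s, was at 455 CPM in cDC1s (373 to 522 over pools), 197 in type 2, and 34.2 in mature cells. *Rab43*, a GTPase of the same route, was at 253, 112, and 80.5 CPM, and the scavenger receptor *Cd36* at 131, 3.01, and 9.05. *Havcr2*, which encodes TIM-3, was at 140 CPM in cDC1s and 136 in type 2 cells, and cDC1s were higher in 4 of 8 pools. *Cybb*, the NADPH oxidase subunit of phagosomes, was at 24.6 CPM in cDC1s and 201 in type 2 cells, and the cathepsin gene *Ctss* at 294 and 1055. In the MHC class I pathway, cDC1s were above type 2 and mature cells in 8 of 8 pools for the peptide transporter genes *Tap1* (344 CPM against 142 and 185) and *Tap2* (228 against 126 and 153) and for the immunoproteasome gene *Psmb9* (1009 against 380 and 485). The class I genes themselves were highest in mature cells, with *H2-K1* at 1279 CPM in cDC1s and 2631 there, and *B2m* at 1374 and 3211. For MHC class II the order was the reverse. *H2-Ab1* was at 7941 CPM in cDC1s, 8017 in type 2, and 1209 in mature cells, and its chaperone *Cd74* at 27361, 29377, and 9296, where cDC1s exceeded type 2 cells in 4 and 1 of 8 pools. *Ciita*, the class II transactivator, was at 134, 102, and 21.8 CPM.

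Of 23 innate sensing genes, 6 were higher in cDC1s than in type 2 cells in 8 of 8 pools, 9 were higher than in mature cells, and 4 were higher than in both. *Tlr3*, a receptor of double-stranded RNA, was at 104 CPM against 3.28 in type 2 and 0.335 in mature cells. *Tlr11* and *Tlr12*, which bind profilin of parasites, were at 41.9 and 83.1 CPM, against 3.83 and 2.19 in type 2 cells. Each of these 3 genes was higher in cDC1s than in both other cells in 8 of 8 pools. *Unc93b1*, which carries such receptors to endosomes, was at 463 CPM, and *Irf5* at 291. *Tlr2*, a receptor of bacterial lipoproteins, was lower in cDC1s than in type 2 cells in 8 of 8 pools, and after thinning to 2000 UMIs it was found in 0.287% of cDC1s, 6.41% of type 2 cells, and 0.557% of T cells. *Myd88*, an adaptor of such receptors, was found in 9.48%, 16.3%, and 4.43%. *Tmem173*, which encodes STING, was not particular to cDC1s, at 50.7 CPM against 78.8 in type 2 and 62.0 in mature cells. Among receptors, *Cxcr3* was at 39.1 CPM in cDC1s and at 0.547 and 0.335 in type 2 and mature cells. *Csf2rb*, of the GM-CSF receptor, was at 150 CPM in cDC1s and higher in both other cells, at 263 and 335.

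Of 25 cytokine and chemokine genes, 1 (*Cxcl9*) was higher in cDC1s than in type 2, mature, and other cells in 8 of 8 pools. Another 11 were at or below the level of mature cells in 8 of 8 pools. A gene without UMIs in cDC1s counts as at or below, and 2 of the 25 had none there. *Cxcl9* was at 343 CPM in cDC1s (235 to 440 over pools), 136 in type 2, 62.7 in mature, and 163 in other cells. After thinning to 2000 UMIs it was found in 26.3% of 696 cDC1s, 9.29% of 312 type 2 cells, 7.27% of 275 mature cells, and 3.27% of 7176 T cells, which should lack it. *Il12b*, the p40 subunit of IL-12, was at 55.6 CPM in cDC1s, at 0 in type 2 cells, and at 965 in mature cells. It was found in 5.89% of thinned cDC1s, 38.5% of mature cells, and 0.0418% of T cells. The chemokine genes *Ccl22* (15.1 CPM) and *Ccl5* (16.4) of cDC1s compared with 1452 and 5269.7 in mature cells. *Il1b* was at 323 CPM in cDC1s and 2322 in type 2 cells. Of 20 genes of costimulation and checkpoint ligands, 12 were at or below the level of mature cells in 8 of 8 pools, and 3 were above it. *Cd40* was at 31.6 CPM in cDC1s and 213 in mature cells, *Cd80* at 25.5 and 206, and *Cd86* at 134 and 157. *Cd274*, which encodes PD-L1, was at 45.7 CPM in cDC1s, 90.3 in type 2, and 238 in mature cells. *Fscn1*, the actin bundler that chose the mature cells, was at 6.31 CPM in cDC1s. Of the interferon-stimulated genes, *Ly6e* was at 2024 CPM in cDC1s and 2000.2 in type 2 cells, and *Ifitm3* at 760.0 and 3362.

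UMIs of cell cycle genes were found in part of the cDC1s. After thinning, 11.4% of 696 cDC1s (exact 95% binomial interval 9.09% to 13.9%, counting error only) held 2 or more UMIs of *Mki67*, *Top2a*, *Birc5*, *Cdk1*, and *Ccnb2*. The share was 7.05% (4.47% to 10.5%) in type 2 cells and 2.55% (1.03% to 5.17%) in mature cells. Among cDC1s without a keratin UMI it was 11.6% of 498 (8.96% to 14.8%), and the part of doublets in it was not tested. Without thinning it was 28.2% of cDC1s. The class is a range cut from a count, since 35 cDC1s held exactly 2 such UMIs and 73 held 1. In the same random draw of UMIs, *Birc5* was found in 10.5% of cDC1s, *Top2a* in 8.91%, and *Mki67* in 7.61%.

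The share of cDC1s was compared between treatments. Among the pools with PancVAX, cDC1s made up 0.556% of passing barcodes with PancVAX alone, 0.653% with anti–PD-1 added, 0.853% with anti–CTLA-4 added, and 0.579% with both antibodies added. Without PancVAX they made up 0.487% with isotype control, 0.561% with anti–PD-1, 0.466% with anti–CTLA-4, and 0.722% with both. The groups overlapped, at 0.660% ± 0.135% with PancVAX and 0.559% ± 0.116% without (mean ± SD, n = 4 pools each, exact permutation test over 70 splits, two-sided *P* = 0.286, adjusted *P* = 0.8 by the Benjamini-Hochberg method over 6 comparisons). By this test the smallest unadjusted *P* that 4 and 4 pools allow is 0.0286. At that value, 1 comparison alone would not fall below 0.05 after adjustment over the 6 comparisons. With and without anti–PD-1 the shares were 0.629% ± 0.0739% and 0.590% ± 0.179% (exact permutation test, *P* = 0.743, adjusted *P* = 0.898). With and without anti–CTLA-4 they were 0.655% ± 0.168% and 0.564% ± 0.0685% (exact permutation test, *P* = 0.4, adjusted *P* = 0.8). No difference exceeded the spread between pools. The highest and the lowest pool with anti–CTLA-4 differed by the vaccine, at 0.853% with PancVAX and 0.466% without. Under the limits of the methods on genes and UMIs, which left 292 cDC1s, the difference with PancVAX turned to −0.0153 points. With only barcodes that held a UMI of the pan-leukocyte gene *Ptprc* as the whole, the differences were 0.0371 points for PancVAX (exact permutation test, *P* = 0.743) and 0.383 points for anti–CTLA-4 (exact permutation test, *P* = 0.114).

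**Figure D2:**
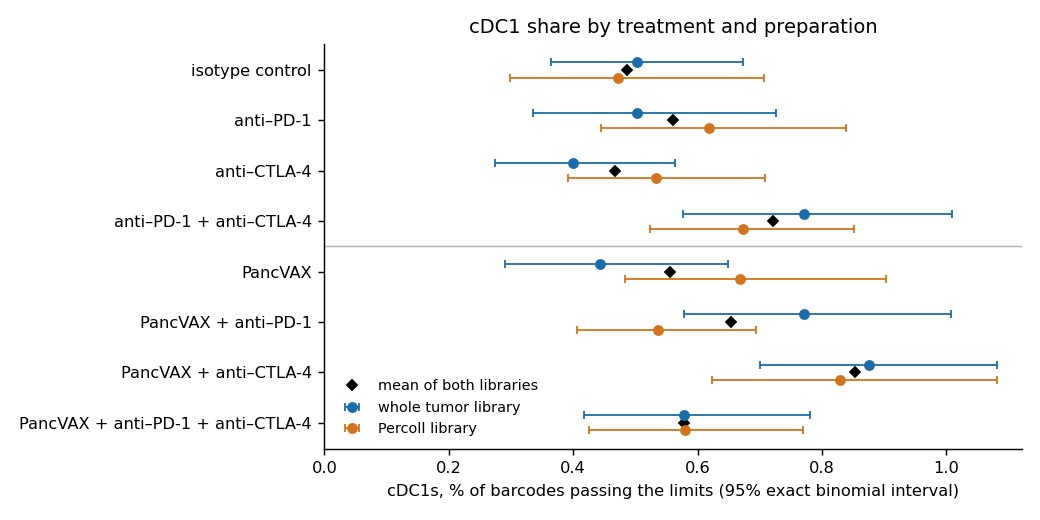
Share of cDC1s among passing barcodes in each library of the 8 treatments, with whole tumor (blue) and Percoll (orange) libraries as points, their exact 95% binomial intervals as bars, and the mean of both as diamonds. The shares run from 0.400% to 0.876%, and pools with PancVAX (lower 4) overlap with those without.

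The share did not differ detectably between preparations. It was 0.614% ± 0.112% in the 8 Percoll libraries and 0.605% ± 0.177% in the 8 whole tumor libraries (exact paired permutation test, *P* = 0.898). Among the 3 sets of dendritic cells, cDC1s made up 54.0% ± 0.766% with PancVAX and 54.5% ± 4.26% without (exact permutation test, *P* = 0.857). With every barcode thinned to 2000 UMIs before the sets were chosen, this difference was −4.88 points (exact permutation test, *P* = 0.2). The 4 pools with PancVAX lay within 53.1% and 54.7%, and those without ran from 50.3% with anti–CTLA-4 to 59.0% with anti–PD-1. The cycling share of thinned cDC1s was 12.0% ± 2.98% with PancVAX and 10.3% ± 1.72% without (exact permutation test, *P* = 0.4). The highest value was 15.5%, in PancVAX plus both antibodies, and the lowest 7.81%, in isotype control. Both rest on few cells. In whole tumor and Percoll libraries they were 8 of 40 and 5 of 44 with PancVAX plus both antibodies, and 5 of 42 and 0 of 22 in isotype control.

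With PancVAX, no change in the transcripts of cDC1s was detected by edgeR in the fit of all 8 pools. UMIs of cDC1s were summed by pool and compared with edgeR in a model that also held both antibodies. The threshold was a Benjamini-Hochberg–adjusted *P* under 0.05 and a log2 fold change beyond 0.5 in either direction. Of 8676 genes tested, 0 (0%) changed in this fit by edgeR, 464 had an unadjusted *P* below 0.05, and DESeq2 called 3. Without the pool of anti–PD-1 plus anti–CTLA-4 the count was 16, and without any other single pool it was 0. Counts over lists leave out the gate genes, whose levels the choice of cells holds up. Of the other 22 identity genes, 14 were above 0 and 8 below 0 on the log2 scale, with a median of 0.05, against −0.01 over all genes. *Irf8* was at 1728 ± 243 CPM (scaled by TMM, mean ± SD, n = 4) with PancVAX and 1651 ± 329 without.

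In the fit by edgeR, none of the lists of cDC1 functions had a member past the threshold with PancVAX. For MHC class I, 17 of 22 genes were above 0, with a median log2 fold change of 0.14, and *H2-K1* was at 1319 ± 43.3 CPM with PancVAX and 1279 ± 177 without. For MHC class II, 10 of 13 were above 0 (median 0.04), with *Cd74* at 28301 ± 3465 and 26908 ± 3940.4 CPM. The list of uptake and cross-presentation had 10 of 17 tested genes above 0 (median 0.13), and *Wdfy4* was at 469 ± 72.2 and 467 ± 53.3 CPM. Costimulation and checkpoint ligands had 9 of 16 above 0, with a median of 0.22. *Cd83*, a surface marker of activated dendritic cells, was at 589 ± 105 CPM with PancVAX and 431 ± 48.0 without (log2 fold change 0.44, SE 0.12, edgeR with Benjamini-Hochberg, adjusted *P* = 0.843), with overlapping groups. *Cd86* was at 148 ± 19.5 and 128 ± 49.0 CPM, and *Cd274* at 53.1 ± 10.5 and 38.0 ± 17.8.

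Cytokines and chemokines were split, with 8 of 16 tested genes above 0 and a median of 0.01. *Cxcl9* was at 346 ± 67.7 CPM with PancVAX and 350.1 ± 110.2 without, and *Il1b* at 353 ± 55.3 and 331 ± 158. Interferon-stimulated genes were mostly below 0, at 29 of 42 (median −0.11), and *Ly6e* was at 2024 ± 81.1 CPM with PancVAX and 2069 ± 155 without. *Ifit3* had the largest fold change of this list, 2.73, and ran from 0 to 98.4 CPM over the pools. Innate sensing had 13 of 20 above 0 (median 0.08), with *Irf5* at 322 ± 34.4 and 265 ± 41.6 CPM and *Unc93b1* at 492.5 ± 43.8 and 450.3 ± 73.7. Growth factor and chemokine receptors had 11 of 14 above 0 (median 0.12), the maturation program 10 of 19 (median 0.16), and cell cycle genes 21 of 34 (median 0.09). Of the maturation program, the NF-κB subunit gene *Rel* was at 173 ± 32.8 and 122 ± 31.1 CPM (log2 fold change 0.53, SE 0.17, edgeR with Benjamini-Hochberg, adjusted *P* = 0.888). Lipid handling and cholesterol had 10 of 15 above 0 (median 0.25), with *Hmgcs1*, an enzyme of cholesterol synthesis, at 77.0 ± 10.3 and 54.7 ± 15.0 CPM. Glycolysis and hypoxia had 15 of 21 below 0 (median −0.11), with *Ldha* at 1098 ± 152 and 1149.8 ± 50.6 CPM. Of markers of other cells, tumor and stroma genes had 4 of 6 below 0 (median −0.60) and neutrophil genes 3 of 3 (median −1.52). Macrophage genes that the gate did not limit had 3 of 6 below 0 (median −0.12). B cell genes had 2 of 2 above 0, and T and NK cell genes 2 of 3. None of these markers was past the threshold, and their part in the other values was not tested. The gene nearest to the threshold, named after its values were seen, was the growth factor gene *Areg* (log2 fold change −1.49, SE 0.20, edgeR with Benjamini-Hochberg, adjusted *P* = 0.109).

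**Figure D3:**
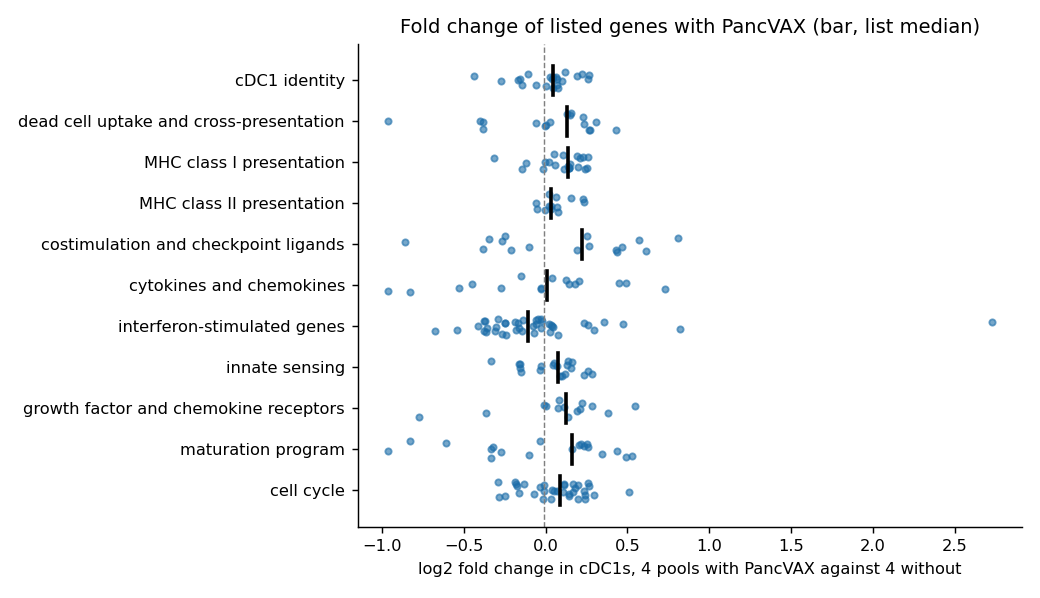
Log2 fold change of each tested gene of 11 lists, gate genes left out, in cDC1s, 4 pools with PancVAX against 4 without (points), with the list median as a bar and the median of all 8676 genes as the dashed line. List medians lie between −0.11 and 0.22, and no gene shown passed the threshold.

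The pairs of treatments that the study set against each other had no calls in the fit of all libraries. PancVAX alone against isotype control and PancVAX plus both antibodies against PancVAX alone had 2 libraries per group and were fitted with edgeR over all 16 libraries, with preparation as a covariate. A treatment had a single pool, so that treatment and pool cannot be told apart. The spread in this fit is between preparations of a pool, not between mice. Each pair had 0 (0%) of 7338 genes past the threshold by edgeR, with 459 and 517 genes at an unadjusted *P* below 0.05. DESeq2 called 0 in both. Fits of only the 4 libraries compared gave 14 genes (8 higher) and 68 genes (66 higher). Without the Percoll library of PancVAX, the fit of the others gave 11 and 9, and without that of PancVAX plus both antibodies the second pair gave 2. By direction alone, PancVAX against isotype control had 11 of 13 MHC class II genes below 0 (median −0.27). Costimulation and checkpoint ligands had 11 of 14 below 0 (median −0.42), and interferon-stimulated genes 25 of 39 above 0 (median 0.36). These lists ran opposite to the sums by pool. Identity genes (13 of 22 above 0, gate genes left out) and cell cycle genes (30 of 33 above 0) did not. The effect of PancVAX was also compared between cDC1s and type 2 dendritic cells by an interaction term. There 0 (0%) of 8316 genes differed by edgeR, with 244 at an unadjusted *P* below 0.05 and 2 by DESeq2.

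With anti–CTLA-4, no member of the lists of cDC1 functions was past the threshold in the sums by pool. Of 8676 genes, 38 (0.438%) changed, 31 higher (0.357%) and 7 lower (0.0807%) in the 4 pools with anti–CTLA-4, where 892 genes had an unadjusted *P* below 0.05 and DESeq2 called 50. The count depended on single pools. It was 3 without PancVAX plus anti–PD-1, 5 without all 3 agents, 20 without PancVAX plus anti–CTLA-4 or isotype control, 23 without anti–PD-1, and 124 without anti–PD-1 plus anti–CTLA-4. The largest rises among genes with an average log2 CPM of 5 or more were in *Mgp* (ENSMUSG00000030218), which encodes a matrix protein, *Krt18* (ENSMUSG00000023043), *Areg* (ENSMUSG00000029378), the detoxifying enzyme gene *Mgst1* (ENSMUSG00000008540), and *Sox9* (ENSMUSG00000000567), a transcription factor of ductal and progenitor cells.

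*Krt18* was at 732 TMM-scaled CPM with anti–CTLA-4, 434 with both antibodies, 161 with PancVAX plus anti–CTLA-4, and 377 with all 3 agents. Without anti–CTLA-4 it was at 108 in isotype control, 222 with anti–PD-1, 31.8 with PancVAX, and 82.7 with PancVAX plus anti–PD-1. The groups overlapped, and the log2 fold change was 2.08 (SE 0.30, edgeR with Benjamini-Hochberg, adjusted *P* = 0.0225). *Mgp* was at 129, 508, 245, and 238 CPM in the same 4 groups with anti–CTLA-4 and at 94.98, 54.6, 15.4, and 18.5 in those without. The groups did not overlap (log2 fold change 2.79, SE 0.45, edgeR with Benjamini-Hochberg, adjusted *P* = 0.0307). *Areg* was at 62.8, 98.0, 25.5, and 40.6 CPM with anti–CTLA-4 and at 22.8, 24.2, 4.39, and 6.15 without, again with no overlap (2.07, SE 0.21, edgeR with Benjamini-Hochberg, adjusted *P* = 0.00858). *Mgst1* rose by 1.85 (SE 0.21) and *Sox9* by 1.69 (SE 0.21). Of the 31 genes, 17 had groups that did not overlap. Over all 8676 genes, the groups did not overlap in 415 (4.78%), and 215 of these (2.48%) were higher with anti–CTLA-4. The 31 genes were chosen by the same contrast, so that nothing is read from their count.

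The levels of the 31 genes that rose were set beside those in other cells. All 31 had a lower CPM in cDC1s than in other passing barcodes in 8 of 8 pools. Over all cells the difference was 3.13 to 5.91 times (median 4.50). The share over all genes is not given, so that nothing is read from this count. They were found in 46 to 295 of the 742 cDC1s. In the other barcodes themselves, the ratio of their mean CPM with and without anti–CTLA-4 was −0.08 to 0.38 on the log2 scale (median 0.11), against fold changes of 0.91 to 2.79 in cDC1s. A keratin UMI was present in 29.1% to 37.4% of cDC1s in the 4 pools with anti–CTLA-4 and in 14.5% to 25.4% of those without. These shares were not thinned to equal depth. Median depth of cDC1s was 11340 to 15676 UMIs in pools with anti–CTLA-4 and 10121 to 13576 in those without. Of the cells with a keratin UMI, 98 held exactly 1, and the part of depth in the shares was not tested. Without the 205 cDC1s that held a keratin UMI, 0 (0%) of 6846 genes changed with anti–CTLA-4 by edgeR (284 at an unadjusted *P* below 0.05). *Krt18* was itself among the 31 genes, and the share of cells left out differed between the groups, so that this count is no separate check of the calls. Only 9 of the 31 genes still had enough UMIs to be tested, and 3 of these were above 0. The part of RNA from other cells in these differences was not tested. In a fit of the 16 separate libraries 0 genes passed by edgeR (647 at an unadjusted *P* below 0.05), and within 1 preparation 2 genes passed in whole tumor libraries and 0 in Percoll libraries.

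**Figure D4:**
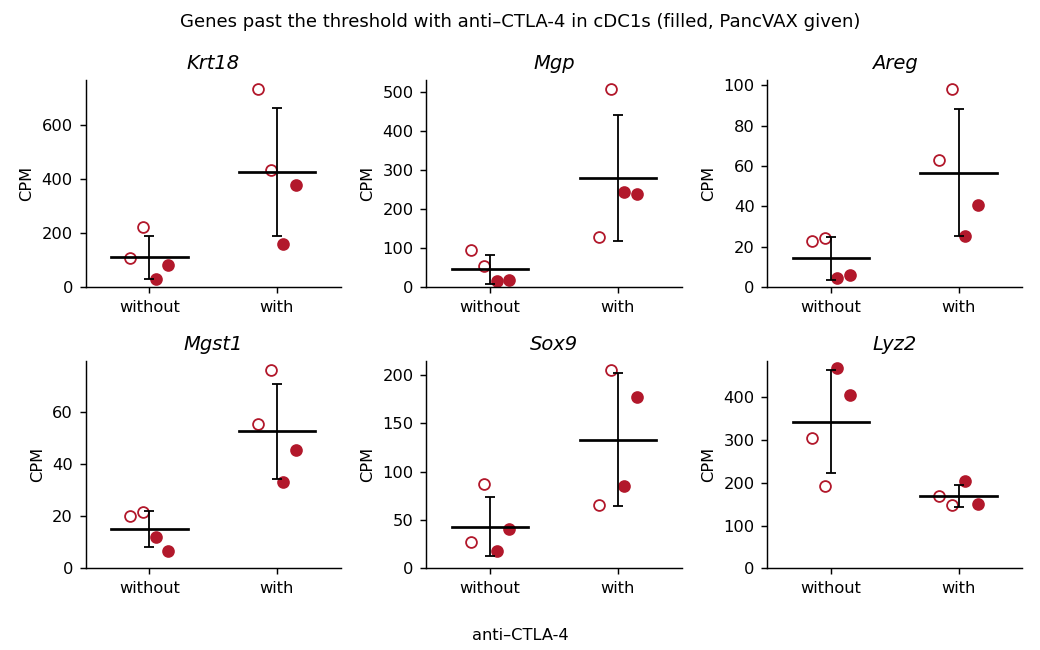
TMM-scaled CPM in cDC1s of 6 genes past the threshold with anti–CTLA-4, 1 point per pool (4 without and 4 with the antibody, filled where PancVAX was given), with mean and SD. *Mgp*, *Areg*, and *Mgst1* do not overlap between groups, *Krt18* and *Sox9* do, and *Lyz2* is lower with the antibody.

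The 7 genes that fell with anti–CTLA-4 were of other kinds. *Lyz2* (ENSMUSG00000069516), the lysozyme of myeloid cells, was found in 424 cDC1s, at 168 ± 25.8 CPM with anti–CTLA-4 and 343 ± 120 without (log2 fold change −0.97, SE 0.16, edgeR with Benjamini-Hochberg, adjusted *P* = 0.0307). By pool it was at 170, 149, 204, and 150 CPM with the antibody and at 305, 193, 468, and 404 without, so that the groups overlapped in 1 pair of pools. *Klk1* (ENSMUSG00000063903), on the list of plasmacytoid dendritic cells, was at 9.22 ± 1.89 and 57.9 ± 31.3 CPM (log2 fold change −2.65, SE 0.41, edgeR with Benjamini-Hochberg, adjusted *P* = 0.0288). All 7 tested genes of that list were below 0, with a median of −0.73. *S100a9*, a neutrophil gene, and *Igfbp7* (ENSMUSG00000036256), a gene of vessels and stroma, were carried by few cells, since 1 cDC1 held 72.1% of the UMIs of *S100a9* and another 51.3% of those of *Igfbp7*.

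No member of the lists of cDC1 identity, presentation, costimulation, cytokines, interferon response, sensing, or maturation was past the threshold with anti–CTLA-4. The lists do not hold every such gene. The cytokine genes *Clcf1* (log2 fold change 1.19) and *Kitl* (1.48), on no list, were among the genes that rose. Of the 22 identity genes that were not gate genes, 16 were below 0 (median −0.13). *Irf8* was at 1239 CPM with anti–CTLA-4, 1547 with both antibodies, 1731 with PancVAX plus anti–CTLA-4, and 1384 with all 3 agents. Without anti–CTLA-4 it was at 1983 in isotype control, 1834 with anti–PD-1, 1919 with PancVAX, and 1877 with PancVAX plus anti–PD-1. The groups did not overlap, but the difference was not past the threshold (log2 fold change −0.37, SE 0.10, edgeR with Benjamini-Hochberg, adjusted *P* = 0.240). *Flt3* was at 90.0 ± 16.7 CPM with the antibody and 122 ± 10.6 without, again with no overlap (−0.43, SE 0.13, edgeR with Benjamini-Hochberg, adjusted *P* = 0.280). Without the keratin-positive cells both were at −0.13, and under the limits of the methods *Irf8* was at −0.02 and *Flt3* at −0.26. Of all 8676 genes, 200 (2.31%) were lower with anti–CTLA-4 with no overlap, so that nothing is read from the lack of overlap. MHC class I had 20 of 22 below 0 (median −0.12), and interferon-stimulated genes 33 of 42 (median −0.22). The list of dissociation and heat shock genes had 22 of 24 above 0 (median 0.29), again with none past the threshold. The median over all genes was −0.01. The share of keratin-positive cDC1s moved with these values, and its part in them was not tested.

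With anti–PD-1, 6 (0.0692%) of 8676 genes rose in cDC1s and 0 fell, and the count depended on single pools. It was 0 by edgeR without the pool of anti–PD-1, of PancVAX plus anti–CTLA-4, or of all 3 agents, 1 without anti–CTLA-4, 2 without isotype control, and 39 without anti–PD-1 plus anti–CTLA-4. In a fit of the 16 separate libraries it was 1. The 6 genes were *Mt2* (ENSMUSG00000031762), a metallothionein, the neutrophil chemokine gene *Cxcl2* (ENSMUSG00000058427), the AP-1 gene *Fosl1* (ENSMUSG00000024912), the stress genes *Nupr1* (ENSMUSG00000030717) and *Cebpd* (ENSMUSG00000071637), and *Gadd45a*, which is named because the count is small. *Mt2* was at 184 CPM with anti–PD-1, 269 with both antibodies, 97.0 with PancVAX plus anti–PD-1, and 309 with all 3 agents. Without anti–PD-1 it was at 53.2 in isotype control, 123 with anti–CTLA-4, 12.1 with PancVAX, and 70.4 with PancVAX plus anti–CTLA-4. The groups overlapped (log2 fold change 1.86, SE 0.26, edgeR with Benjamini-Hochberg, adjusted *P* = 0.0363). *Nupr1* was at 545 ± 248 and 219 ± 85.1 CPM (1.28, SE 0.16, edgeR with Benjamini-Hochberg, adjusted *P* = 0.0221), with no overlap. *Cxcl2* was at 103 ± 49.8 and 29.4 ± 17.9 CPM (1.75, SE 0.26, edgeR with Benjamini-Hochberg, adjusted *P* = 0.0453), again with no overlap. Both were the only such genes of the 6, where 211 (2.43%) of all genes had no overlap, and DESeq2 called 15 genes. All 6 were lower in cDC1s than in other barcodes in 8 of 8 pools, a count from which nothing is read. Of the 6 genes, 4 (66.7% of the 6, 10.5% of the 38) were also called with anti–CTLA-4, in a fit of the same 8 pools. Without the keratin-positive cells 0 of 6846 genes changed with anti–PD-1 by edgeR (336 at an unadjusted *P* below 0.05). Only 4 of the 6 genes still had enough UMIs to be tested, and 3 of these were above 0 (median log2 fold change 0.11). The cells left are part of the same pools, so that this count is no separate check of the calls.

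No member of the lists was past the threshold with anti–PD-1. MHC class II had 12 of 13 genes below 0 (median −0.14) and cell cycle genes had 24 of 34 above 0 (median 0.15), against −0.004 over all genes. Of the 22 identity genes that were not gate genes, 16 were below 0 (median −0.06).

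Between preparations, 8 (0.109%) of 7338 genes were higher in cDC1s of Percoll libraries and 0 lower, in a fit of 16 libraries with the pool as a block. DESeq2 called 21, 16 higher and 5 lower. Without the pool of all 3 agents 41 genes passed by edgeR, 21 higher and 20 lower, and without any other single pool 0 to 5, with 0 without isotype control. The 8 were genes that cDC1s transcribe, each found in at least 321 of 742 cells. *Atf3* (ENSMUSG00000026628), a stress-induced transcription factor, was at 162 to 281 CPM in whole tumor libraries (median 202) and at 306 to 565 in Percoll libraries (median 447). It was higher with Percoll in 8 of 8 pools, with no overlap (log2 fold change 1.03, SE 0.12, edgeR with Benjamini-Hochberg, adjusted *P* = 0.0103). *Rgs2* (ENSMUSG00000026360), a regulator of G protein signaling, went from a median of 156 to 274 CPM (0.89, SE 0.15). *Ccnl1* (ENSMUSG00000027829), a cyclin of RNA splicing, went from 134 to 232 (0.81, SE 0.11), *Gna13* (ENSMUSG00000020611), a G protein subunit, from 137 to 235 (0.80, SE 0.12), and the adhesion gene *Nptn* (ENSMUSG00000032336) from 51.1 to 92.8 (0.76, SE 0.12). Others were *Tsc22d3*, which glucocorticoids induce, and *Gm26917*. Each of the 8 was higher in Percoll libraries in 8 of 8 pools, as were 84 (1.14%) of all 7338 genes. Preparations did not overlap in 5 of the 8 and in 12 (0.164%) of all genes, and since the same contrast chose the 8, nothing is read from these counts.

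**Figure D5:**
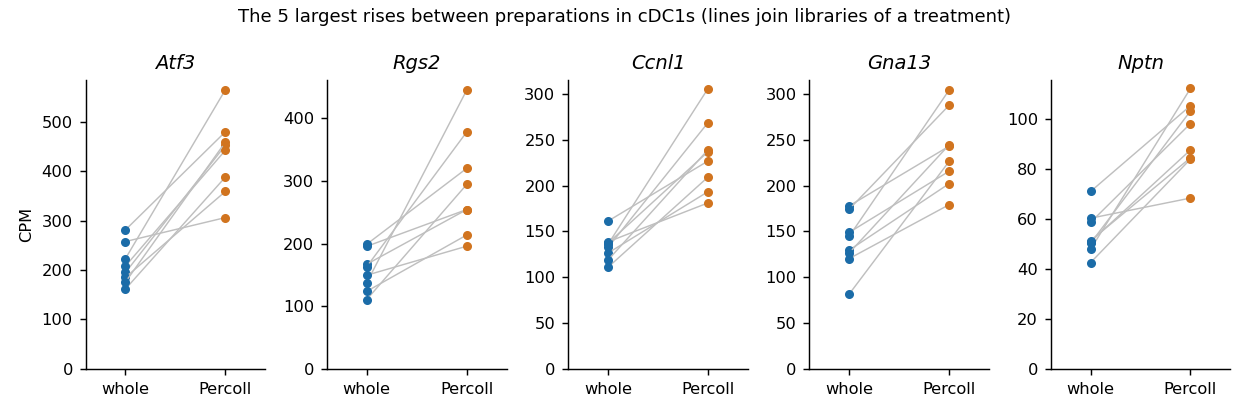
TMM-scaled CPM in cDC1s of the 5 genes with the largest rises past the threshold between preparations, with whole tumor (blue) and Percoll (orange) libraries of a treatment joined by a line. All lines rise, and *Atf3*, *Ccnl1*, and *Gna13* do not overlap between preparations.

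Without the keratin-positive cells, 59 of 5688 genes differed between preparations, 40 higher and 19 lower with Percoll, and all 8 genes were called again. *Atf3* was then at a log2 fold change of 1.18 (edgeR with Benjamini-Hochberg, adjusted *P* = 0.000942). The cells left are part of all members, so that repeated calls and shared directions are no separate check. The direction was the same as in all members for 58 of the 59, all but *Dusp1*. Among them were members of the lists of cDC1 functions, with *Cd274* at 1.15, *Pdcd1lg2*, which encodes PD-L2, at 2.28, *Il12b* at 1.18, *Cd83* at 0.58, and *Havcr2* at 0.72, with *Nfkbia* at 0.64, *Tnfaip3* at 1.00, and *Oasl1* at 0.93, and with *Ccl17* at −2.14 and *Nfkb1* at −0.67. The immediate early gene *Dusp1* was at 0.63 and the chaperone gene *Dnajb1* at 1.06. The 19 lower genes also held ribosomal protein genes, with *Rpl37a* at −0.59, *Rps21* and *Rps28* at −0.52, *Rps27* at −0.51, and *Rpl39* at −0.50. The mitochondrial gene *mt-Nd3* was at −0.88. In all members these genes were not past the threshold (for example *Cd274* at 0.82, edgeR with Benjamini-Hochberg, adjusted *P* = 0.181). Of the list of dissociation and heat shock, 15 of 24 genes were above 0 in all members (median 0.08, with −0.004 over all genes), and *Atf3* was the member past the threshold. Genes of macrophages that the gate did not limit were below 0 in 3 of 6 (median −0.19) and genes of plasmacytoid dendritic cells above 0 in 7 of 7 (median 0.80), with none past the threshold in all members. Without keratin-positive cells, some markers of other cells were past it, with the macrophage gene *Apoe* at −1.23, the neutrophil genes *S100a8* and *S100a9* at −3.39 and −3.17, and *Mgl2*, on the list of type 2 dendritic cells, at 0.85. The part of these cells in the difference between preparations was not tested. Under the limits of the methods, which left 1561 genes to test, 10 genes passed and all were lower in Percoll libraries.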

How the data were processed

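Tumors of 8 treatments were profiled by 5′ single-cell RNA-seq in 16 libraries. The authors deposited raw counts of UMIs for 32285 genes in all libraries together, and UMI counts of T cell receptor contigs. Per the labels, Cell Ranger 4.0.0, Seurat, and the mouse build mm10 were used. A barcode's library was read from its numeric suffix, as the labels number the samples. Doublets were not removed here. cDC1s, their gene lists, and the comparisons were chosen with earlier results of these data known.

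UMIs of cDC1s were summed per pool (8) or per library (16). Genes were tested with edgeR 4.0.16 (R 4.3.3, TMM scaling, filterByExpr, quasi-likelihood test, Benjamini-Hochberg over all genes tested), and scripts were tested on simulated data. The comparison of preparations had the pool as a block, since both libraries of a pool share a treatment in the labels. Cells are not replicates, so the study's test over cells was not used. Shares were compared by exact permutation tests (scipy 1.17.1), and thinning drew 2000 UMIs per cell without replacement. CPM of summed UMIs are given for levels between cell sets, and TMM-scaled CPM for comparisons. Intervals cover counting error only.

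Named genes were the markers and identity genes, list members past the threshold, up to 5 largest rises and falls per comparison at an average log2 CPM of 5 or more, and for each list the members of highest CPM. *Areg* and *Ifit3* with PancVAX, *Clcf1*, *Kitl*, *Gadd45a*, *Tsc22d3*, and *Gm26917* were chosen after their values were seen. The same holds for the genes named without keratin-positive cells and the examples of levels between cell sets. Some genes are not reported here. Results were recomputed with DESeq2 1.42.0, with all genes kept, under other limits on barcodes, in single preparations, and without each pool or library. A further 3 alternatives were chosen after seeing the data: leaving out cDC1s with a *Siglech* UMI, with a *Krt8* or *Krt18* UMI, or with more than 50000 UMIs.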

Additional observations from a re-analysis of the deposited data

Results flagged for a closer look

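Of 50 groups of 4 or more values that were examined, 1 held a value far from the others, where chance gives about 1 in 20. *S100a9*, a neutrophil gene, was at 104 CPM in cDC1s of the anti–PD-1 pool, against 1.10 to 8.20 CPM in the other pools without anti–CTLA-4. A single cDC1 held 72.1% of all *S100a9* UMIs.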

How the results depend on the processing

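No difference in a share passed the exact permutation test under any alternative run, and several changed sign. In percentage points of passing barcodes, the limits of the methods gave −0.0153 for PancVAX, −0.0589 for anti–PD-1, and −0.00905 for Percoll. Percoll libraries alone gave −0.0240 for anti–PD-1, and cDC1s without keratin gave −0.00562 for anti–CTLA-4. The difference with Percoll was −0.0124 at a mitochondrial limit of 5%, −0.00456 without *Siglech* cells, and −0.000299 without cells above 50000 UMIs. The share among dendritic cells with PancVAX was higher by 1.93 points under the limits of the methods, 1.58 with 3 or more gate UMIs, 0.305 with no limit on *Ccr7*, and 0.641 in Percoll libraries, and the cycling share differed by −0.130 under the limits of the methods. Leaving out 1 pool gave 0.0370 to 0.155 for PancVAX, −0.00296 to 0.126 for anti–PD-1, 0.0248 to 0.153 for anti–CTLA-4, −0.0228 to 0.0431 for Percoll, −1.92 to 0.963 for the share among dendritic cells, and 0.618 to 2.84 for the cycling share.

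Counts of changed genes moved more, over unlike numbers of genes tested. The main fits tested 8676 genes over pools, 7338 over libraries, and 8316 for the interaction. With no filter on low counts these were 16347, 16347, and 17037, and without keratin-positive cells 6846, 5688, and 7111. The limits of the methods left 2490 over pools and 3021 for the interaction, and the fits of 4 libraries tested 4714 and 5723. With no filter on low counts the changed genes were 48 for PancVAX, 90 for anti–PD-1, 272 for anti–CTLA-4, 168 for Percoll, 103 for PancVAX against isotype control, 235 for PancVAX plus both antibodies against PancVAX, and 51 for the interaction with type 2 cells. DESeq2 gave 3 for PancVAX, 15 for anti–PD-1, 21 for Percoll, and 2 for the interaction. The limits of the methods gave 0 for anti–PD-1, 1 for anti–CTLA-4, and 2 for the interaction, and 3 or more gate UMIs gave 0 and 22 for the antibodies. Without *Siglech* cells 10 genes passed with anti–PD-1. Without keratin-positive cells the counts were 0 for anti–PD-1, 0 for anti–CTLA-4, 59 for Percoll, and 1 for the interaction, and without cells above 50000 UMIs they were 0, 22, 18, and 2. The fit of 16 libraries gave 1 for anti–PD-1 and 0 for anti–CTLA-4, whole tumor libraries gave 1 and 2, and Percoll libraries 3 and 0. Fits of only the 4 libraries compared gave 14 and 68 for the 2 pairs of treatments. Without the pool as a replicate block, 10 genes differed between preparations. The cause of these changes was not tested.

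Leaving out 1 pool or library gave 0 to 16 genes for PancVAX, 0 to 39 for anti–PD-1, 3 to 124 for anti–CTLA-4, 0 to 41 for Percoll, 0 to 11 and 0 to 9 for the pairs, and 0 to 3 for the interaction. The pool of anti–PD-1 plus anti–CTLA-4 gave the highest count for PancVAX and for each antibody when left out. Of the named genes, *Fosl1* with anti–PD-1 was at −0.040 in whole tumor libraries, *Nupr1* at −0.089 without keratin-positive cells, and *Krt18* with anti–CTLA-4 at −1.21 under the limits of the methods. Other alternatives of named genes kept the direction, 162 of them on the same side of the threshold and 138 not. With 67 to 139 cDC1s per pool, low genes were not tested.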
